A study of Mus musculus with 56 samples.

Results

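The G1 cyclins, their kinases and the RB family were followed across single colon tumor cells. The group held 10 genes of the 24410 in the deposited table: the D cyclins Ccnd1, Ccnd2 and Ccnd3, the E cyclins Ccne1 and Ccne2, the kinases Cdk4 and Cdk6, and the pocket protein genes Rb1, Rbl1 and Rbl2. They were chosen by their symbols, through the Ensembl IDs, and all 10 were found. Cdk2, the kinase partner of the E cyclins, is given beside them and is not counted among the 10.

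The cells came from 1 male ApcMin/+ mouse, whose truncating Apc allele turns on Wnt signaling and gives rise to tumors of the gut. The mouse drank 2% dextran sulfate sodium (DSS), which injures the colon lining, for 5 days from 10 weeks of age and was 12 weeks old at sampling. Its 3 tumors were digested and mixed, and single DAPI- Cd31- Cd45- Epcam+ Cd24+ cells were sorted, that is, living cells with Epcam and Cd24 and without the endothelial and blood markers. Complementary DNA in which Lgr5, a stem cell gene, was detected by PCR of 32 cycles went on to sequencing, which gave 56 libraries. All cells therefore share 1 mouse, 1 genotype, the DSS treatment, the sort and the choice by Lgr5, and the 3 tumors cannot be told apart. There was 1 group and no control, so no test between conditions was possible and no p-value is given.

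Values are TPM, a measure of transcript abundance that is scaled for transcript length and for the library's total. Of 1540 library pairs, 6 were near copies of each other (Pearson's r from 0.957 to 0.992, the next pair at 0.782), and each was averaged, which left 50 cells. A cell is named by its i7 and i5 library index. The libraries of all 6 pairs carried i7 indexes N708 to N710, and results are given also within the 32 cells of N704 to N707 and the 18 of N708 to N710. A median of 5902.5 genes reached 1 TPM per cell (range 1316 to 7234), and the cell with the fewest, N708-N503, had 85.1% of its TPM in Gm10925. The sort markers went with the labels. Epcam and Cd24a were at 1 TPM or more in 50 of 50 cells and Pecam1 and Ptprc in 0. All 8 epithelial markers were seen in at least 48 cells. In each list of another cell type some markers were seen in no cell and others in several. Of 5 colonocyte genes, 4 were seen in no cell and Car1 in 44, and of 5 endocrine genes, 4 in no cell and Pax6 in 2. Of 5 tuft cell genes, 3 were seen in no cell (Pou2f3, Trpm5 and Gfi1b) and Avil in 46. Of 7 goblet genes, Clca1 was seen in no cell and Agr2 in 25, and the list's summed level ran from 0 to 1923 TPM. Of the immune genes, Ptprc and Cd3e were seen in no cell and Csf1r in 21. Of 4 endothelial genes, 2 were seen in no cell (Pecam1 and Kdr) and Vwf in 5, and of 5 fibroblast genes, 3 in no cell (Col1a2, Col3a1 and Dcn) and Pdgfra in 25.

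The D cyclins bind CDK4 or CDK6 and the E cyclins bind CDK2. The kinases then phosphorylate the pocket proteins RB1, p107 (Rbl1) and p130 (Rbl2), which releases E2F transcription factors and lets the genes of DNA replication be read. Ccnd1 and Ccnd2 have been described as targets of Wnt signaling in intestinal tumors, and Ccne1 and Rbl1 as genes that E2F can act on. Much of this control is exerted on proteins, which were not measured here.

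Upstream sequences are shown for the genes that went most with the S phase genes (Rbl1, Ccne1 and Cdk2) and for Cdk4, the member with the highest level. They come from RefSeq (GRCm38.p6), which matched 7 of the 10 members and Cdk2 (11 genes), are read 5′ to 3′ on the gene's own strand, and stop before the transcript start, without bases that an annotated exon covers. Capitals mark 3 kinds of word searched on both strands of the 250 bases before the start: the E2F words, the E-box and the TCF words. As E2F words counted TTCCCGC, the variant that reads TTCGCGC, the variant that reads TTGGCGC and the variant that reads TTGCCGC. The E-box, which MYC and its relatives can bind, is CACGTG. As TCF words counted CTTTGAT and the variant that reads CTTTGAA.
Rbl1, chr2:157204535-157204784, minus strand: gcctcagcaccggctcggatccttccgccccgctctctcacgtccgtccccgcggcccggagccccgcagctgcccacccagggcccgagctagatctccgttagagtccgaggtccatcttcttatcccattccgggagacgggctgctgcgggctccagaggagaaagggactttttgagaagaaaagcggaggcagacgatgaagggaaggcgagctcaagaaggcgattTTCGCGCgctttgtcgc
Ccne1, chr7:38107535-38107740, minus strand: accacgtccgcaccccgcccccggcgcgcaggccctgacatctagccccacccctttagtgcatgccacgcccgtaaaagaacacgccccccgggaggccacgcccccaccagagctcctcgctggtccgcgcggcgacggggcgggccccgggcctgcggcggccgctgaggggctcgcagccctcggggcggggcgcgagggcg
Cdk2, chr10:128705052-128705179, minus strand: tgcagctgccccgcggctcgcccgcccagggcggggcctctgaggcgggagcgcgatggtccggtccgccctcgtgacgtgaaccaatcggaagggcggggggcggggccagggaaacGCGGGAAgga
Cdk4, chr10:127063285-127063533, plus strand: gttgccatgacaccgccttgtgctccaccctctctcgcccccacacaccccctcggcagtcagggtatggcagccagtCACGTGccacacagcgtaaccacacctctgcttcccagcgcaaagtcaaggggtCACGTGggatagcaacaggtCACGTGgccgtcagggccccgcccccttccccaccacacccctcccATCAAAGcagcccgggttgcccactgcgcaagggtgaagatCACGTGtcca

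The Rbl1 stretch held 1 E2F word, which ended 10 bases before the start. Cdk2 had 2 in its 250 bases, 1 of them in the printed stretch. E2F words occurred in 7.89% of the 32851 upstream stretches of the same length. The Ccne1 window held none of these words, which says only that these letters are not in it. Cdk4 had 4 E-boxes and 1 TCF word. At least 1 E-box was found in 6.02% of stretches and 4 or more in 0.0213%, and a TCF word in 7.48%. A word of this kind is a match of letters and not a measured binding site.

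In median level Cdk4 stood far above the other members, Ccnd3 and Ccnd1 came next at similar medians, and the remaining genes were low or seen in a minority of cells. Cdk4 (chromosome 10, 127063534 to 127067920, GRCm38) ranged from 43.8 to 1976 TPM with a median of 934, and it was above all other members in 49 of 50 cells. The exception was N707-N503, where Cdk4 was at its lowest, 43.8 TPM, below Ccnd1 at 84.5 and Ccnd2 at 77.0. Cdk4 was above Ccnd3 in 50 of 50 cells. In the order of medians, Ccnd3 (25.7 TPM) was followed by Ccnd1 (23.7), Cdk2 (9.03), Rbl1 (1.97), Ccnd2 (0.43), Cdk6 (0.195) and Rbl2 (0.12), and Ccne1, Ccne2 and Rb1 had a median listed at 0. Apart from the step from Cdk4 to Ccnd3, the quartile ranges of all neighbours in this order overlapped. Ccnd3, for example, was above Ccnd1 in 26 cells and below it in 22. Of the 10 members, 4 were seen, here and below meaning 1 TPM or more, in at least 50% of cells (Cdk4, Ccnd1, Rbl1 and Ccnd3), and 8 were seen in at least 20%, all but the E cyclins.

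**Figure D1:**
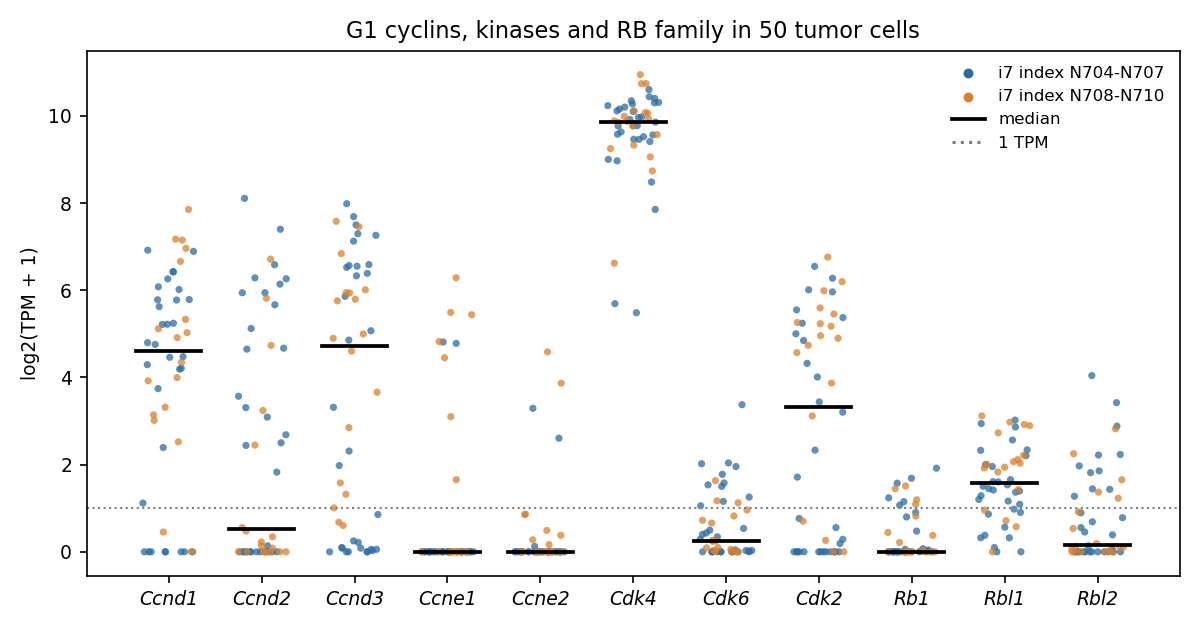
Levels of the 10 members and Cdk2 in each of 50 cells on a log2(TPM + 1) axis, with the gene on the x axis, 1 point per cell, colors for the i7 index groups and a black bar at the median. Cdk4 has the highest median and lies above every other member in 49 of 50 cells, while the D cyclins spread from 0 to 231 TPM or more and most cells sit at 0 for Ccne1 and Ccne2.

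Ccnd1, on chromosome 7 (144929931 to 144939925, minus strand), was the D cyclin seen in most cells. Its lowest, median and highest levels were 0, 23.7 and 231 TPM. It was seen in 40 of 50 cells (80%, exact Clopper-Pearson 95% interval 66.3% to 89.97%, which like all intervals here covers counting error only) and was listed at 0 in 9. The highest cell was N710-N506, with the next at 143 TPM. Ccnd3 (chromosome 17, 47505051 to 47599691, plus strand) reached higher values in fewer cells. It ranged from 0 over a median of 25.7 to 253 TPM and was seen in 34 cells (68%, interval 53.3% to 80.5%). Where seen, the median was 60.5 TPM for Ccnd3, 34.9 for Ccnd1 and 29.8 for Ccnd2. Ccnd2 (chromosome 6, 127125162 to 127152193, minus strand) was present in some cells and absent from many. It ranged from 0 over 0.43 to 275 TPM, was seen in 24 cells (48%, interval 33.7% to 62.6%), and was listed at 0 in 19.

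No single D cyclin dominated all cells. Ccnd3 had the highest TPM of the 3 in 23 of 50 cells (46%, interval 31.8% to 60.7%), Ccnd1 in 16 (32%, 19.5% to 46.7%) and Ccnd2 in 10 (20%, 10.0% to 33.7%). In 1 cell, N704-N517, none was seen. The intervals of Ccnd3 and Ccnd1 overlap, and so do those of Ccnd1 and Ccnd2. A lead of at least 2-fold over the next D cyclin was held by Ccnd3 in 17 cells, by Ccnd1 in 9 and by Ccnd2 in 7, and by none in 17. The order of leads was the same in both index groups: Ccnd3, Ccnd1 and Ccnd2 led in 13, 10 and 8 of the 32 cells of N704 to N707 and in 10, 6 and 2 of the 18 cells of N708 to N710. The levels were not. In the first and second group, Ccnd3 was seen in 18 and 16 cells (median 6.465 and 29.9 TPM) and Ccnd2 in 19 and 5 (5.045 and 0.135 TPM). Ccnd1 was seen in 24 and 16 (23.7 and 24.3 TPM).

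Within a cell the make-up was usually uneven. The leading D cyclin held a median of 75.3% of the summed D cyclin TPM and over 90% of it in 15 of 49 cells. Over the summed TPM of all cells, Ccnd3 gave 44.3%, Ccnd1 34.5% and Ccnd2 21.2%, while the median cell had 43.2%, 28.3% and 2.58%. Most cells nevertheless held more than 1 D cyclin. Ccnd1 with Ccnd3 was the most frequent make-up, in 16 cells, followed by all 3 in 11, Ccnd1 with Ccnd2 in 10, Ccnd3 alone in 6, Ccnd1 alone in 3, Ccnd2 alone in 2 and Ccnd2 with Ccnd3 in 1. Cells with Ccnd2 and Ccnd3 but not Ccnd1 were thus the rarest. The most frequent make-up differed between the index groups. In N704 to N707, Ccnd1 with Ccnd2 came first, in 9 cells, then all 3 in 7 and Ccnd1 with Ccnd3 in 6. In N708 to N710, Ccnd1 with Ccnd3 came first, in 10 cells, with all 3 in 4 and Ccnd1 with Ccnd2 in 1. Spearman's rho (on log2(TPM + 1), across the 50 cells) between Ccnd2 and Ccnd3 was -0.25, the lowest of all pairs of members, and it was -0.18 and -0.22 within the index groups N704 to N707 and N708 to N710.

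The summed D cyclin level differed widely between cells. It ranged from 0 over a median of 101 to 422 TPM. Cell N710-N506 was highest, with 231 TPM of Ccnd1 and 191 of Ccnd3, and next came N706-N503 at 329, of which 275 was Ccnd2. At the other end were N704-N517 at 0, N708-N503 at 1.01 and N710-N517 at 2.83 TPM. The number of genes seen was 3935, 1316 and 7051 in these 3, so a low sum was found in cells with few genes and in a cell with many.

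**Figure D2:**
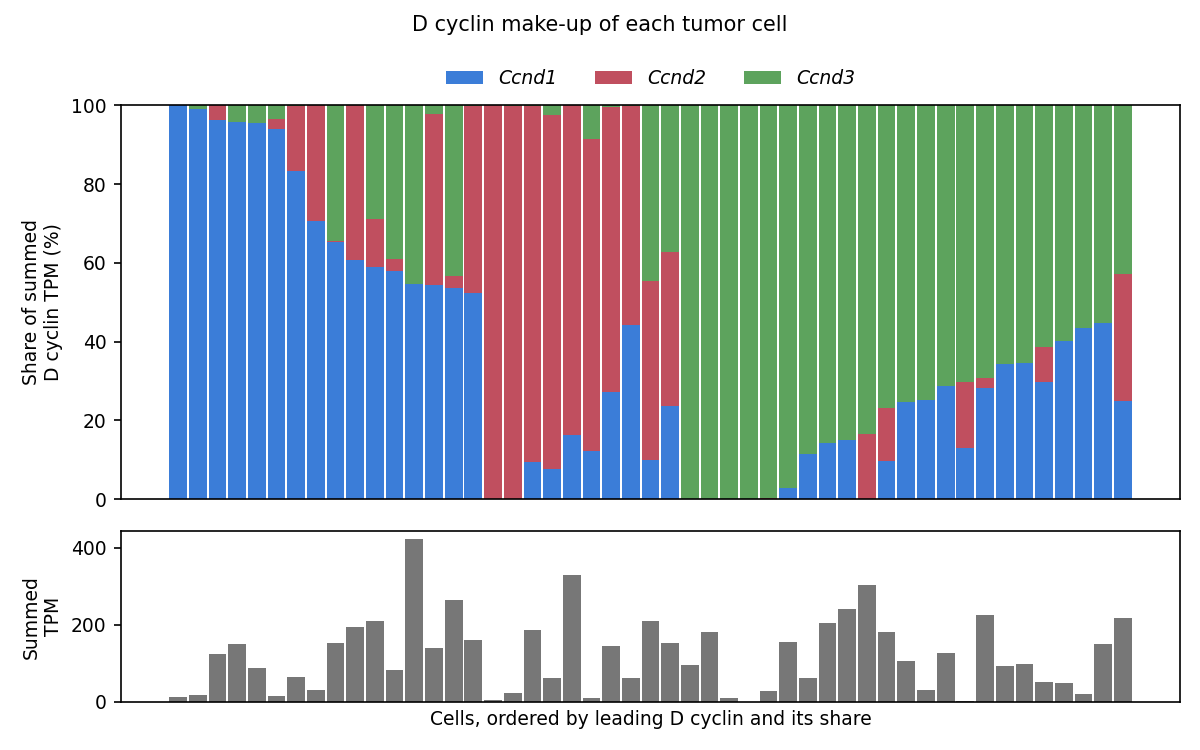
Share of the summed D cyclin TPM held by Ccnd1, Ccnd2 and Ccnd3 in each of the 49 cells with a sum above 0 (upper axis, percent), with the summed TPM of the same cell below. Cells are ordered by the leading D cyclin and its share, with 16 cells led by Ccnd1, 10 by Ccnd2 and 23 by Ccnd3.

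The E cyclins were rare. Ccne1 (chromosome 7, 38097984 to 38107534, minus strand) was seen in 9 of 50 cells (18%, interval 8.58% to 31.4%) and listed at 0 in the other 41. Its levels in the 9 cells were 77.2, 44.02, 42.4, 27.3, 27.1, 26.5, 20.9, 7.58 and 2.15 TPM, the highest again in N710-N506. Ccne2 was seen in 4 cells (8%, interval 2.22% to 19.2%), up to 23.1 TPM, and in 2 of them together with Ccne1. In 39 cells neither reached 1 TPM. The index groups were uneven: Ccne1 was seen in 2 of 32 cells of N704 to N707 and in 7 of 18 of N708 to N710.

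Between the kinases of the D cyclins, Cdk4 was above Cdk6 in 50 of 50 cells, by at least 2-fold in each. Cdk6 ranged from 0 over a median of 0.195 to 9.38 TPM and was seen in 14 cells (28%, interval 16.2% to 42.5%). The longest annotated transcript has 11525 bases for Cdk6 and 2053 for Cdk4. TPM assume even coverage of a transcript, and whether coverage was even was not tested. Cdk2 was intermediate, from 0 over 9.03 to 108 TPM, seen in 29 cells (58%, interval 43.2% to 71.8%). It was seen in 15 of the 32 cells of N704 to N707 and in 14 of the 18 of N708 to N710.

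Of the pocket protein genes, Rbl1 was the one seen in most cells, at low levels. Rbl1 (chromosome 2, 157145893 to 157204534, minus strand) ranged from 0 over 1.97 to 7.69 TPM and was seen in 36 cells (72%, interval 57.5% to 83.8%). Rbl2 ranged from 0 over 0.12 to 15.5 TPM and was seen in 16 cells. Rb1 ranged from 0 to 2.78 TPM, with a median listed at 0, and was seen in 10 cells (20%, interval 10.0% to 33.7%). Rbl1 was the highest of the 3 in 29 cells (58%, interval 43.2% to 71.8%), Rbl2 in 8 and Rb1 in 4, and none was seen in 9. Rbl1 led in 16 of 32 cells in the index group N704 to N707 and in 13 of 18 in N708 to N710, where Rb1 led in 0. The summed level of the 3 genes had a median of 4.17 TPM, against 101 for the D cyclins.

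Parts of several members overlap exons of a gene on the opposite strand: Ccnd1 with LTO1, Ccnd2 with 9330179D12Rik, Ccnd3 with Bysl, Ccne2 with Ints8, Cdk4 with Tspan31, Cdk2 with Pmel, Rb1 with Rcbtb2 and Lpar6, and Rbl2 with Aktip. No source at hand says whether strand entered the counting, and without it reads of such neighbours cannot be told apart. Across cells, rho between member and neighbour was between -0.05 and 0.22 for these pairs, apart from Cdk2 and Pmel at 0.30, where Pmel was seen in 2 cells.

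The level of S phase was read from 35 genes of DNA replication that passed the filter on low values (1 TPM in 20% of cells), of 42 listed, as their mean log2(TPM + 1). This level ranged from 0.22 over a median of 1.48 to 5.23. The cells fell apart at a gap: 35 cells lay at 2.02 or below and 15 at 2.80 or above. Of the 15, 10 were among the 18 cells of N708 to N710 and 5 among the 32 of N704 to N707. The level also went with the number of genes seen per cell (rho 0.64), and the part of either in the results below was not tested beyond the values given.

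Rbl1, Ccne1 and Ccnd1 went with the S phase genes, and so did Cdk2, while Ccnd2 and Cdk6 did not. Spearman's rho was 0.48 for Rbl1, 0.47 for Ccne1 and 0.35 for Ccnd1, so 3 of 10 members reached 0.3, and 2 of the 8 that passed the filter, which Ccne1 did not. Of all 9166 genes that passed it, 15.1% reached 0.3 and 0.927% were at -0.3 or less, which no member was, and their median rho was 0.11, against 0.17 over the 10 members and 0.15 over the 8 that passed. Cdk2 was at 0.39. The other members were Ccne2 at 0.22, Cdk4 at 0.17, Ccnd3 at 0.16, Rbl2 at 0.14, Rb1 at 0.07, Ccnd2 at -0.04 and Cdk6 at -0.12. With the number of genes per cell held constant (partial rho), the values were 0.44 for Rbl1, 0.44 for Ccne1, 0.33 for Ccnd1 and 0.31 for Cdk2. All cells share 1 mouse and 1 sort, and these rhos describe the 50 cells.

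These relations appeared over both sides of the gap together and were weaker within either side. Ccne1 was seen in 8 of the 15 cells above the gap and in 1 of the 35 below it. Rbl1 was seen in 15 of 15 and 21 of 35, Ccnd1 in 14 of 15 and 26 of 35, Cdk2 in 12 of 15 and 17 of 35, and Ccnd3 in 12 of 15 and 22 of 35. Ccnd2 was seen less often above the gap, in 4 of 15 cells against 20 of 35 below. It was also seen less often in N708 to N710, which held 10 of the 15, with 5 of 18 cells against 19 of 32. Its rho with the S phase level was 0.24 within the lower cells and 0.12 within the higher, and -0.02 and 0.02 within N704 to N707 and N708 to N710. Within the 35 lower cells, rho with the S phase level was 0.18 for Rbl1, 0.15 for Ccnd1, 0.23 for Cdk2 and -0.20 for Ccne1, which only 1 of these cells held. Within the 15 higher cells it was 0.21, 0.14, 0.18 and 0.20, and Ccnd3 reached 0.56. None of the 4 genes reached 0.3 on either side.

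**Figure D3:**
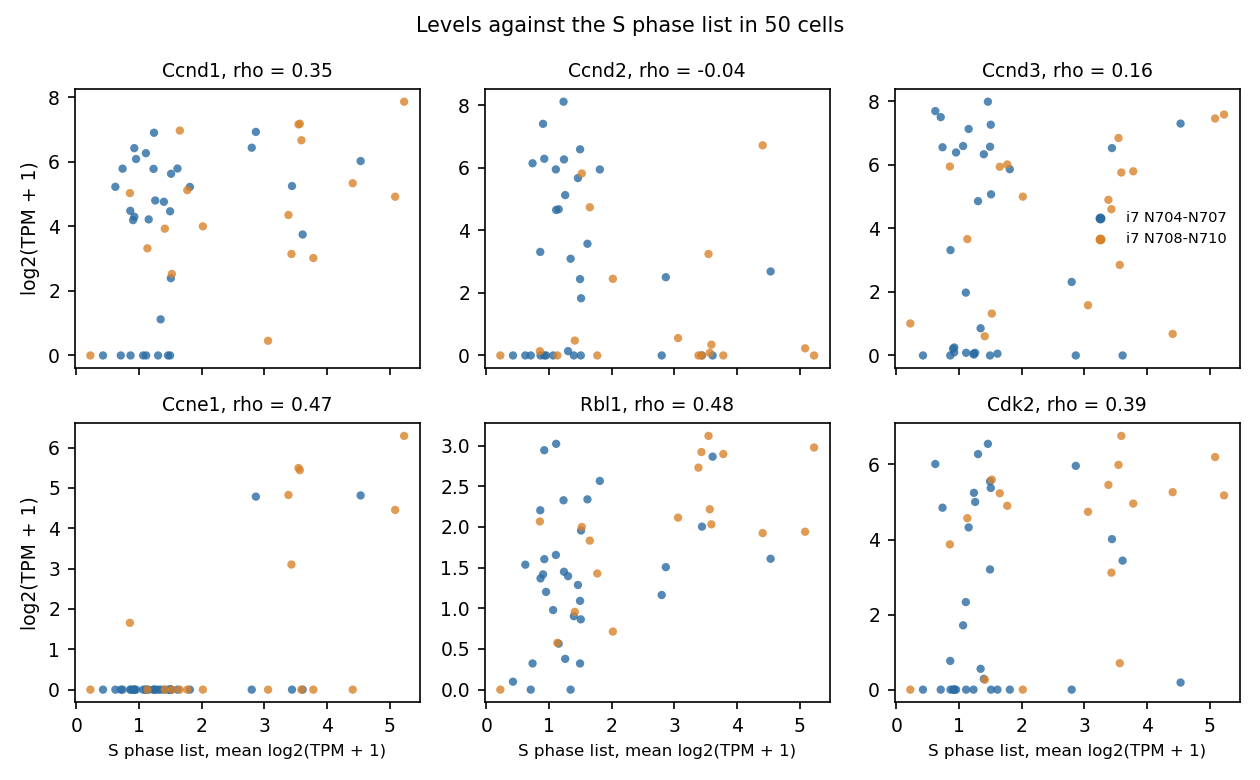
Level of Ccnd1, Ccnd2, Ccnd3, Ccne1, Rbl1 and Cdk2 (y axes, log2(TPM + 1)) against the mean log2(TPM + 1) of the S phase list (x axes) in 50 cells, colored by i7 index group, with Spearman's rho above each panel. The gap between 2.02 and 2.80 on the x axes separates 15 cells, 8 of which hold Ccne1 and 15 of which hold Rbl1.

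The index groups gave the same sign for these genes and different sizes. In N704 to N707 (32 cells) and N708 to N710 (18 cells), rho with the S phase level was 0.25 and 0.60 for Rbl1, 0.39 and 0.46 for Ccne1, 0.25 and 0.48 for Ccnd1, and 0.20 and 0.52 for Cdk2. In the first group only Ccne1 of these reached 0.3, and it rests there on 2 cells. The difference between the index groups was not tested. The single genes of the list make up the S phase level, so their values describe it and are no separate support. The correlation was positive with 35 of 35 genes for Ccnd1 and for Ccne1 and with 33 of 35 for Rbl1, and it reached 0.3 with 11, 27 and 24 of them. The highest were Mcm2 for Ccnd1 (0.44), a subunit of the replicative helicase, Cdc6 for Ccne1 (0.68), which loads that helicase, and Fen1 for Rbl1 (0.57), a flap endonuclease. Ccnd2 was positive with 8 of 35 and Cdk6 with 10 of 35.

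Mitotic genes were read in the same way from 36 of 52 listed G2/M genes. Ccne1 was at 0.48 and was the only 1 of 10 members to reach 0.3, against 16.2% of all genes, and none of the 8 that passed the filter did. None was at -0.3 or less, against 1.27% of all genes. Cdk4 followed at 0.27, Rbl1 at 0.25 and Ccnd3 at 0.24, Ccnd1 was at 0.14, and Ccnd2 was lowest at -0.26. The G2/M level also went with genes per cell (rho 0.63), and the partial rho was 0.44 for Ccne1 and 0.13 for Rbl1. Rbl1 was at -0.13 in N704 to N707 and at 0.54 in N708 to N710.

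The 9 cells with Ccne1 can be described one by one. All 9 held Ccnd1, at 7.83 TPM or more, and all 9 held Rbl1, while Rbl2 was seen in none of them. In the order of the S phase level among 50 cells they ranked 1, 2, 3, 8, 9, 11, 12, 14 and 45. The exception, N710-N508, had the lowest Ccne1 of the 9 and a Ccnd1 level of 31.6 TPM. All 9 lay above the median G2/M level. Cell N710-N506 ranked first in the S phase level, Ccnd1, Ccne1, Ccne2 and the D cyclin sum. Without it, rho with the S phase level was 0.46 for Rbl1, 0.42 for Ccne1 and 0.30 for Ccnd1.

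Wnt target genes were read from 18 genes, among them Axin2, Nkd1, Notum, Lgr5, Ascl2, Myc and Sox9, without Ccnd1 and Ccnd2. Their mean level ranged from 0.14 over 2.85 to 3.99 and went little with genes per cell (rho 0.19). None of the 10 members reached 0.3 or -0.3, against 10.7% and 0.84% of all genes. Rb1 was highest at 0.29 and Rbl2 followed at 0.25, and Ccnd2 was at 0.14, Ccnd3 at 0.13, Cdk4 at 0.13 and Ccnd1 lowest at -0.15. The D cyclin sum was at 0.06. The median was 0.09 over the 10 members and 0.13 over the 8 that passed the filter, against 0.09 over all genes that passed it. Of the D cyclins known as Wnt targets, Ccnd1 thus lay below the median gene and Ccnd2 slightly above it. Against 8 feedback genes of the pathway alone (Axin2, Nkd1, Notum, Wif1, Rnf43, Znrf3, Apcdd1 and Sp5), Ccnd2 was at 0.29 and Ccnd1 was at -0.09, both short of 0.3 or -0.3. All 50 cells carry the same Apc allele and were chosen for Lgr5, so no cell with an intact Wnt control was there to compare.

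Single Wnt target genes gave no common direction with Ccnd1. It was positive with 8 of 18, from Cd44 at 0.20 to Sox9 at -0.31. Ccnd2 was positive with 11 of 18 and reached 0.3 with 2, the highest being Sp5 at 0.38. Ccnd3 was positive with 16 of 18, all under 0.3, the highest being Ephb3 at 0.27. Rb1 and Rbl2 were both highest with Tnfrsf19, at 0.31 and 0.44. The RB family sum was at 0.34 with the Wnt target level and 0.33 with the S phase level.

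**Figure D4:**
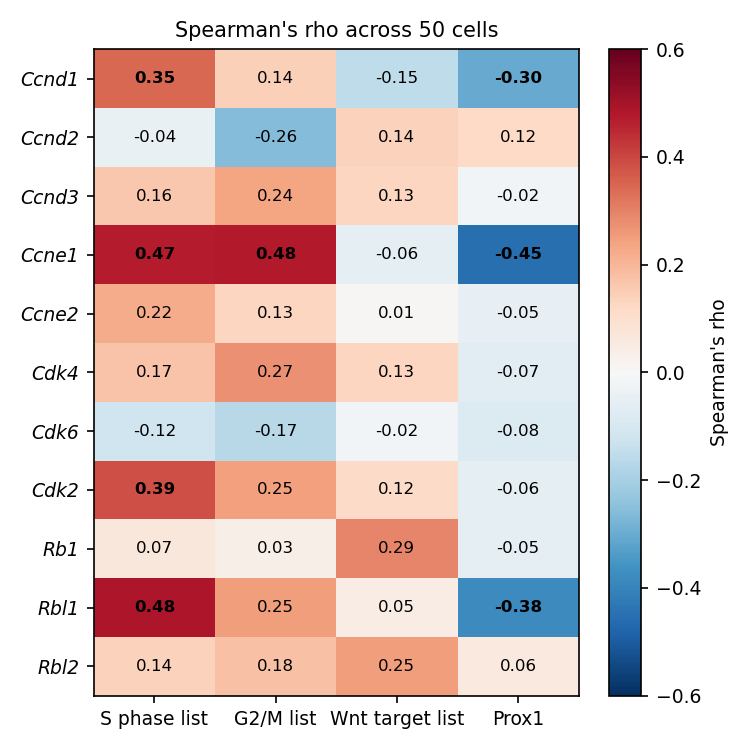
Spearman's rho across 50 cells between each member or Cdk2 (rows) and the S phase, G2/M and Wnt target levels and Prox1 (columns), with the color scale from -0.6 to 0.6. Values at 0.3 or more, or -0.3 or less, are in bold: Rbl1, Ccne1, Cdk2 and Ccnd1 with S phase, Ccne1 with G2/M, none with the Wnt target level, and Ccne1, Rbl1 and Ccnd1 below 0 with Prox1.

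Prox1, a homeobox transcription factor named in the title of the series beside quiescence, ranged from 0 over a median of 14.7 to 66.8 TPM and was seen in 41 of 50 cells. Ccne1, Rbl1 and Ccnd1 went against it. Spearman's rho was -0.45, -0.38 and -0.30, so 3 of 10 members were at -0.3 or less, 2 of them among the 8 that passed the filter, against 3.26% of all genes. None reached 0.3, against 8.58%. The other 7 members lay between -0.08 and 0.12. None of the 9 cells with Ccne1 exceeded the median of Prox1. In them it was 0, 0.05, 1.39, 2.31, 2.92, 4.69, 5.36, 5.91 and 7.72 TPM. By index group (N704 to N707, then N708 to N710) it was -0.24 and -0.63 for Ccne1, -0.32 and -0.46 for Rbl1, and -0.22 and -0.35 for Ccnd1. These are the members that also went with S phase, and the share of this relation that the S phase level carries was not tested. Cdk2, which went with S phase too, was at -0.06 with Prox1. Without cell N710-N506, Ccnd1 was at -0.26, no longer at -0.3 or less, and Ccne1 and Rbl1 at -0.41 and -0.36.

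**Figure D5:**
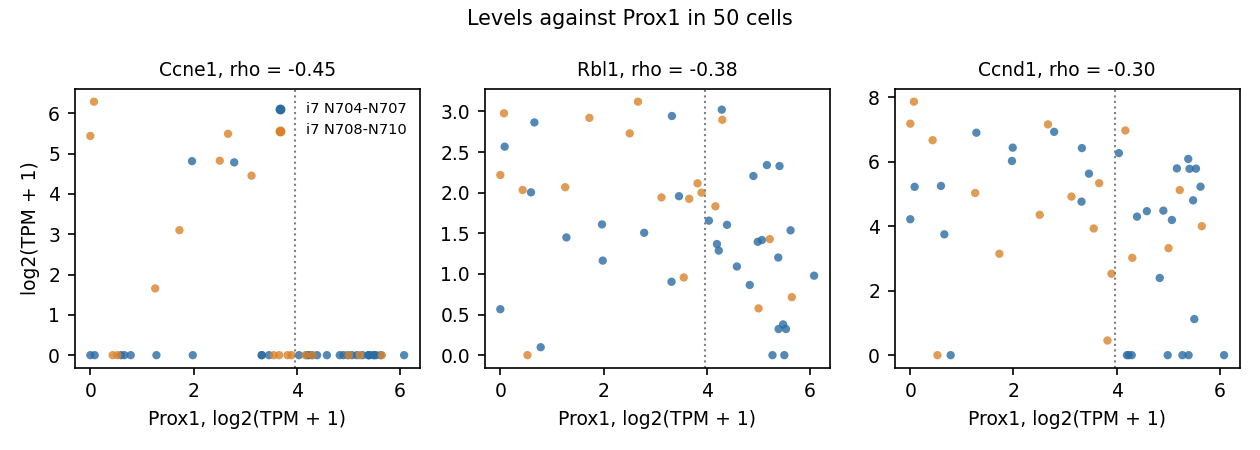
Level of Ccne1, Rbl1 and Ccnd1 (y axes) against Prox1 (x axes) in 50 cells, all as log2(TPM + 1) and colored by i7 index group, with Spearman's rho above each panel and the median of Prox1, 14.7 TPM, as a dotted line. All 9 cells with Ccne1 lie left of the line, at 7.72 TPM of Prox1 or less.

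Among themselves the members went together little. Of 45 pairs, 3 reached a rho of 0.3, namely Ccne1 with Rbl1 (0.42), Ccnd1 with Rbl1 (0.40) and Ccnd1 with Ccne1 (0.38). Of all pairs of genes that passed the filter, 4.63% did. Ccne1 did not pass it, and where both members passed, only Ccnd1 with Rbl1 reached 0.3. No pair of members was at -0.3 or less, against 0.913% of all pairs. The median over the 45 pairs was 0.06. The 3 called pairs are the pairs among the 3 members that also went with S phase. Within the 2 index groups they were at 0.11 and 0.71, 0.37 and 0.32, and 0.35 and 0.53. Cdk2, which went with S phase too, was below 0.3 with each of these members: 0.09 with Rbl1, 0.10 with Ccnd1 and 0.26 with Ccne1. Cdk4 and its D cyclins gave 0.11 with Ccnd1, 0.01 with Ccnd2 and -0.04 with Ccnd3. Ccnd1 and Ccnd2 gave 0.26.

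For each member that passed the filter, the genes most like it across the 50 cells were taken among genes with the same sign in both index groups. For Rbl1 they were Snrpd1 (rho 0.74), Rpgrip1 (0.64) and the S phase gene Fen1 (0.57). Ccnd1 was most like Slc25a38 (0.59), Mrps2 (0.55) and, as Rbl1 was, Snrpd1 (0.54). Ccnd2 was most like a gene without a symbol, ENSMUSG00000029333 (0.51), Klhl21 (0.50) and Slc38a2 (0.49), and Ccnd3 most like Mtfr1l (0.51), Ppp1r26 (0.49) and Cenpc1 (0.48). Cdk4 was most like Zfp207 (0.60), Rabgef1 (0.59) and Psd3 (0.55), Cdk6 most like Krt8 (0.50), Guca1a (0.49) and Nlrp4e (0.47), Rb1 most like Gyg (0.54), Hint3 (0.53) and Myo7b (0.53), and Rbl2 most like Mum1 (0.58), Prkra (0.50) and Nhlrc2 (0.49). All these genes were picked as the highest among the genes that passed the filter, so their values are high by that choice. Slc25a38 and Snrpd1 kept 0.48 or more with Ccnd1 in each index group. Others were uneven: in N704 to N707 and N708 to N710, Cdk6 was at 0.66 and 0.13 with Krt8 and at 0.60 and 0.18 with Nlrp4e. Some were seen in few cells, such as Ppp1r26 in 11 and Psd3 in 15. Apart from Snrpd1, no gene was named for more than 1 member.

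The other genes of the pathway were read against the same S phase level, where 15.1% of all genes reached 0.3. Of the 7 CDK inhibitor genes, 5 passed the filter and 0 of these reached 0.3 or -0.3. Among the 5, Cdkn1a, the gene of p21, had the highest median, 144 TPM, and the highest rho, 0.22, and Cdkn1c, the gene of p57, was lowest at -0.13. Cdkn2c, seen in 5 cells and so below the filter, was at 0.49 with S phase and 0.52 with G2/M. Of 10 E2F and DP genes, 6 passed and 4 of these reached 0.3, the highest being E2f6 at 0.36. E2f4, a partner of the pocket proteins in resting cells, had the highest median of the 6, 22.3 TPM, and the lowest rho, -0.02. Below the filter, E2f7 (seen in 2 cells) was at 0.56, E2f8 (6 cells) at 0.44 and E2f1 (4 cells) at 0.37.

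Among 7 genes that act with or on CDK2, all passed and 3 reached 0.3. Ccna2, the S and G2 phase cyclin, was highest at 0.65, Cks1b, a small kinase subunit that is also in the G2/M list, was at 0.51 with the highest median (92.6 TPM), and Cdk7 was lowest at -0.13. A list of 6 genes held Mybl2 and genes of the MuvB complex, which joins pocket proteins or MYBL2 at cell cycle genes. Of the 6, 3 passed and 2 of these reached 0.3, Mybl2 and the MuvB gene Rbbp4 (0.37). Mybl2 was at 0.48, and among the 3 Lin37 had the highest median (19.7 TPM) and the lowest rho (-0.02). Lin9, seen in 1 cell, was at -0.04. Of 10 genes of cyclin turnover, 9 passed and 1 of these reached 0.3, Gsk3b at 0.31, and among the 9 Cul4a was highest in median level (33.3 TPM) and Ddb1 lowest in rho (-0.07). With the Wnt target level, 3 of these 9 reached 0.3 (Fbxw7 at 0.32, Gsk3b at 0.31 and Cul4a at 0.30), against 10.7% of all genes, as did Mnat1 (0.36) of the CDK2 list and none of the others that passed. No gene of the 5 lists that passed the filter was at -0.3 or less with either level.

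The D cyclins were also set beside the marker lists of other cell types. Ccnd3 went against the colonocyte list (rho -0.35), of whose 5 genes only Car1 was seen, in 44 cells, with a summed level from 0 to 7.83 TPM. Ccnd2 was at 0.30 with the epithelial list. The other relations of the 3 D cyclins with the 8 marker lists lay between -0.20 and 0.24. The part of other cell types in the D cyclin levels was not tested.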

How the data were processed

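Single sorted tumor cells were sequenced after Bead-seq amplification, per the labels' protocols. The authors deposited 1 table of TPM for 24410 Ensembl gene IDs in 56 libraries, and each column name holds the index pair of 1 sample's title. The submitters' processing notes name Bowtie2 2.2.9, RSEM 1.2.31 and bcl2fastq 1.8.4 with build GRCm38.p4, and no source at hand gives the annotation or the use of strand. Read depth cannot be had from TPM, and a value of 0 is called listed at 0.

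GENCODE M21 names for GRCm38 matched 24235 IDs, and coordinates came from it. Library pairs with Pearson's r above 0.9 were averaged, which left 50 cells of 1 group. A gene was seen at 1 TPM or more. Levels were log2(TPM + 1), list levels were means over genes seen in 20% of cells (a member was left out of its own list), and relations were Spearman's rho, read as present from 0.3 or to -0.3, beside the share of 9166 genes that passed the same filter. The correlation code was tested on simulated data.

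The 10 members, the lists and the rules were chosen with earlier results of these data known, and the relations of Ccnd1 and of cycling genes to Prox1 were among those. The named genes were the members and Cdk2, from each pathway list the highest median and the highest and lowest rho with S phase among genes that passed the filter, and the 3 genes most like each member. Genes named beside these, such as the single list genes, were chosen after their values were seen. Alternatives were other pseudocounts (0.1 and 10), thresholds (above 0 and 10 TPM), Pearson's r, partial rho, other lists and sets of cells. Cells of each index group, cells without the 6 pairs, cells without N710-N506 and the sides of the S phase gap were added after the data were seen. Computing used SciPy 1.17.1, pandas 2.3.3 and numpy 2.4.6 under Python 3.11.15, with figures by matplotlib 3.10.9.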

Additional observations from a re-analysis of the deposited data

How the results depend on the processing

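The D cyclin order of leads, the lead of Cdk4 over Cdk6 in every cell and the 3 members that went with S phase were kept with 56 libraries as cells, without the cell with the fewest genes and without the 6 averaged pairs. A required 2-fold lead left Ccnd1 with 18% of cells, Rb1 with 2% and Rbl1 with 42%. In N704 to N707, Ccne1 led in 6.25% of cells, 1 member reached 0.3 with S phase, 2 reached 0.3 or -0.3 with G2/M and 1 with Prox1. In N708 to N710, Ccne1 led in 38.9%, Rb1 in 0% and Rbl1 in 72.2%, and 5 members were called with S phase, 4 with G2/M and 3 with Wnt targets. On the low side of the S phase gap 0 members were called, and rho of Ccne1 turned to -0.20. Members called with G2/M numbered 4 by Pearson's r, and 2 with TPM rescaled without Gm10925 and ribosomal protein genes, without the cell with the fewest genes, or without the averaged pairs. With Wnt targets 1 was called at a pseudocount of 0.1, by Pearson's r, after rescaling and without the averaged pairs. Counting any value above 0, 7 members instead of 4 were seen in at least 50% of cells.

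Leaving out each i5 index in turn gave 2 to 4 members called with S phase, 1 to 3 with G2/M, 0 to 2 with Wnt targets and 2 to 3 with Prox1. It gave leads of 25% to 35.6% for Ccnd1, 17.8% to 22.2% for Ccnd2 and 40% to 52.3% for Ccnd3. For single genes, 854 values of rho moved by less than 0.146, 58 moved further and 1 was counted as reversed. A change of sign alone was not counted as reversed. As partial rho with S phase, for example, Cdk6 went from -0.12 to 0.13 and Rb1 from 0.07 to -0.17. The causes were not tested. No paired analysis was possible because there was 1 group. Depth is unknown, and 1 mouse gives no spread between animals.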
